A study of Mus musculus with 2 samples.

Results

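Heparin and serglycin proteoglycan synthesis was examined through 10 genes in LSCs, the leukemic stem cells of mice given a chronic myeloid leukemia (CML). The genes were taken by symbol from the 23284 symbols listed. They are Srgn, which encodes the core protein serglycin, and 9 enzymes that build or sulfate the chains on it: Ext1, Ext2, Ndst1, Ndst2, Glce, Hs2st1, Hs6st1, Hs3st1 and Chst12. All 10 were listed above 0 FPKM (fragments per kilobase of transcript, scaled to library size) in both libraries. The study compared wild-type (WT) LSCs with LSCs that lack STAP-1, an adapter protein, to learn what the loss of STAP-1 changes in gene expression. There was 1 WT library and 1 STAP-1 KO library, so no difference has a replicate check, and every value below stands for 1 library. Both came from C57BL/6J donor cells, of WT mice or of mice with a targeted disruption of the STAP-1 gene, and mice of 8 to 14 weeks were used throughout the study. LSK cells (lineage marker negative, Sca-1+ c-Kit+) were transduced with a retrovirus carrying human BCR-ABL and GFP and were given, together with unmodified C57BL/6SJL (Ly5.1) marrow, to lethally irradiated C57BL/6SJL recipients. The GFP+ CD45.2+ LSK cells were then sorted from the recipients 11 days after this first transplantation. BCR-ABL is thus driven by a viral vector in this model, and how many mice each library drew on is not given in the sources used here. The targeted gene, Stap1, was listed at 62.0 FPKM in WT and 0.309 FPKM in STAP-1 KO, where an estimated 10.2 reads stood behind it.

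Serglycin is the main proteoglycan inside the secretory granules of blood cells, and mast cell granules are the best known example. Chains of repeating sugars are attached to serines of its core protein, each through a short linkage of sugars. In connective tissue type mast cells these chains are heparin, a densely sulfated form of heparan sulfate that holds histamine and proteases in the granule. In other blood cells they are mostly chondroitin sulfate. Ext1 and Ext2 lengthen the heparan chain, Ndst enzymes exchange acetyl for sulfate groups on its glucosamines, Glce turns glucuronic into iduronic acid, and Hs2st1, Hs6st1 and Hs3st1 add sulfate at named positions. Chst12 acts on the other kind of chain and sulfates chondroitin.

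The attachment region of serglycin can be read directly in the gene. The coding sequence of Srgn in GENCODE M21 (GRCm38, the mm10 build) has 456 bases, or 152 codons, without the stop. It holds 10 serine-glycine codon pairs, and all 10 stand in 1 unbroken run from codon 90 to codon 109. The run lies in the last exon, and the 90 bases around it, on the minus strand at chr10:62494983-62495072, are shown here because the chains of serglycin are attached there. Capitals mark the 60 bases of the serine and glycine codons.
Srgn coding sequence: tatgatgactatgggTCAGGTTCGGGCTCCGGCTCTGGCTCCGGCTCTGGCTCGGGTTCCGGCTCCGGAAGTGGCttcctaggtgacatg

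Of the 10 genes, 6 were lower in STAP-1 KO by 2-fold or more and 0 were higher by as much, where a gene is counted if it reaches 0.1 FPKM in each library. By the same rule 22.9% of the 12507 genes compared were lower and 12.3% were higher. The 6 were Srgn, Ext1, Ndst1, Ndst2, Hs6st1 and Hs3st1, whereas Ext2, Glce, Hs2st1 and Chst12 lay within 2-fold. At 5 of the 6 the difference was over 4-fold, with Ext1 the exception. The median log2 ratio of STAP-1 KO to WT, with a pseudocount of 0.1 FPKM that makes low genes look less different, was -1.77 over the 10 genes and -0.05 over all genes compared. Corrected for transcript length and GC content, as described below, the median of the 10 genes was -1.18. The reads behind each value were estimated, since many low FPKM values fall on steps worth 1 read, and none of the 10 genes had fewer than 100 estimated reads in either library. Intervals given for single genes are 95% intervals of this counting error only and do not include the difference between animals or preparations.

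**Figure D1:**
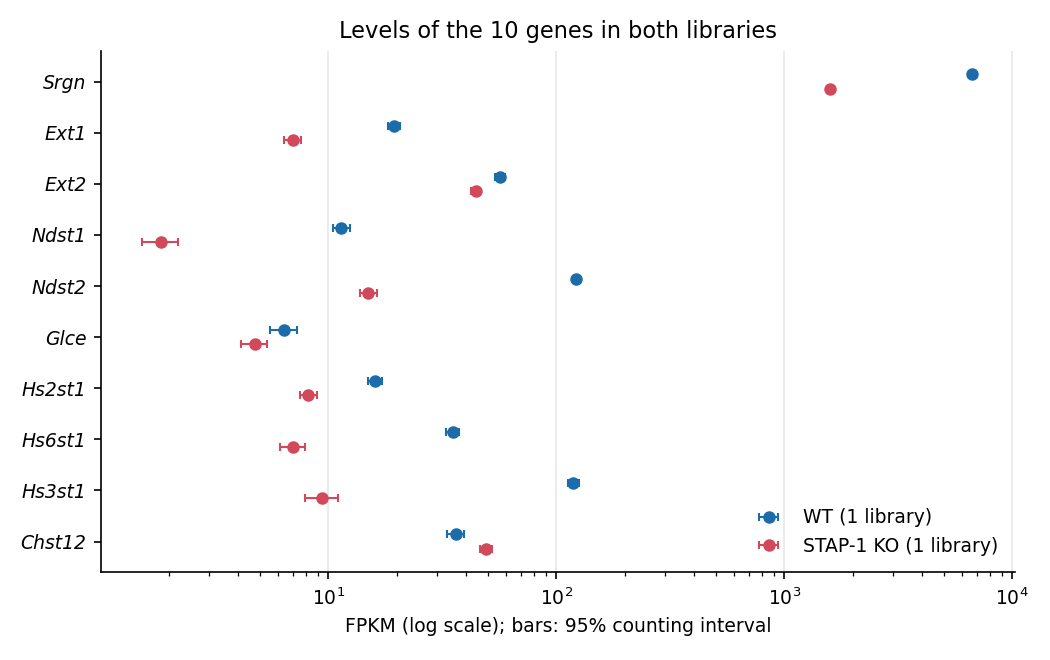
FPKM of the 10 genes (logarithmic horizontal axis) in the WT library (blue) and the STAP-1 KO library (red), ordered by role, with bars for the 95% counting interval. Srgn stands far to the right in both libraries, Hs3st1 and Ndst2 are the farthest apart of the enzymes, and Chst12 is the one gene with the STAP-1 KO value on the right.

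Srgn, at chr10:62493833-62527451, was listed at 6691 FPKM in WT and at 1588 FPKM in STAP-1 KO. These values rank 6th and 19th of all genes in their library, so serglycin was among the most abundant transcripts on both sides of a 4.21-fold difference (interval 4.14 to 4.26). Srgn made up 1.03% of the summed FPKM of all genes in WT and 0.263% in STAP-1 KO. The estimated reads behind the values were 75880 and 25215, the deepest of the 10 genes.

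Of the 2 chain polymerases, 1 was lower by the rule and 1 was not. Ext1, at chr15:53064038-53346159, was listed at 19.5 FPKM in WT and 6.98 FPKM in STAP-1 KO, a level 2.79-fold lower (interval 2.51 to 3.10). Its log2 ratio of -1.47 became -0.74, within 2-fold, when set against genes of like transcript length and GC content. Ext2, at chr2:93661028-93822568, was listed at 56.4 and 44.3 FPKM, which is 1.28-fold lower (interval 1.19 to 1.37). The proteins of these genes act as a complex, and their transcripts were not equally abundant in either library. Ext2 exceeded Ext1 by 2.90-fold in WT and by 6.34-fold in STAP-1 KO, values that are not corrected for the length of Ext1.

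Both N-deacetylase/N-sulfotransferases were lower. Ndst2, at chr14:20723730-20734562, is the form that mast cells need for heparin, and it was listed at 123 FPKM in WT and 15.0 FPKM in STAP-1 KO, 8.17-fold lower (interval 7.47 to 8.93). Ndst1, the form with a broad tissue distribution, was listed at 11.4 and 1.84 FPKM, 6.19-fold lower (interval 5.07 to 7.60). The intervals of these 2 differences overlap. Ndst2 accounted for 91.5% of the FPKM of the pair in WT and for 89.1% in STAP-1 KO, shares that are not corrected for transcript length. Corrected for length and GC content, the log2 ratios were -2.80 for Ndst2 and -1.63 for Ndst1, farther apart than the deposited -3.02 and -2.57.

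Glce, the epimerase, was the least abundant of the 10 genes in WT and differed little. At chr9:62057248-62122655, it was listed at 6.37 FPKM in WT and 4.76 FPKM in STAP-1 KO, 1.34-fold lower (interval 1.11 to 1.62). About as many reads stood behind each value, an estimated 222 and 231.

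The 3 heparan O-sulfotransferases were spread from the widest difference of all 10 genes to one within the 2-fold limit. Hs3st1, at chr5:39613935-39755475, adds the rare 3-O-sulfate that lets heparin bind antithrombin. It was listed at 119 FPKM in WT, level with Ndst2, and at 9.38 FPKM in STAP-1 KO, 12.6-fold lower (interval 10.6 to 15.1). Hs6st1, at chr1:36068400-36106446, was listed at 35.1 and 6.99 FPKM, 5.03-fold lower (interval 4.37 to 5.79). Exons of an opposite-strand gene, Gm37335, cover 8.07% of the Hs6st1 exon bases, and the library kit does not keep the strand. Hs2st1, at chr3:144429706-144570181, was listed at 16.1 and 8.18 FPKM, 1.96-fold lower. It falls just short of a 2-fold difference, its interval starts at 1.75 and includes 2-fold, and Ext1 is the gene that passes by the least.

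Chst12, the chondroitin 4-O-sulfotransferase at chr5:140505550-140525724, was the only one of the 10 genes with the higher value in STAP-1 KO. It was listed at 36.2 FPKM in WT and 49.3 FPKM in STAP-1 KO, 1.36-fold higher (interval 1.23 to 1.52) and within the 2-fold limit.

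Next, the core protein was set beside the enzymes. The log2 ratio of Srgn was -2.07 and the median over the 9 enzymes was -1.47, a difference of -0.61. The enzymes ranged from -3.65 (Hs3st1) to 0.45 (Chst12), so Srgn lay inside their range, with 4 enzymes below it and 5 above it. For each of the 9 the counting interval of the ratio stood clear of that of Srgn. Summed, the 9 enzymes came to 422 FPKM in WT and 147 FPKM in STAP-1 KO. Srgn exceeded that sum by 15.8-fold in WT and by 10.8-fold in STAP-1 KO. With Chst12 left out, which leaves the 8 heparan sulfate enzymes, Srgn exceeded the sum by 17.3-fold and 16.3-fold, nearly the same proportion in both libraries, and the difference of -0.61 became -0.19. The latter value is uncorrected, and with the correction for length and GC content given below the difference from these 8 enzymes was -1.48, a combination added after the values were seen.

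**Figure D2:**
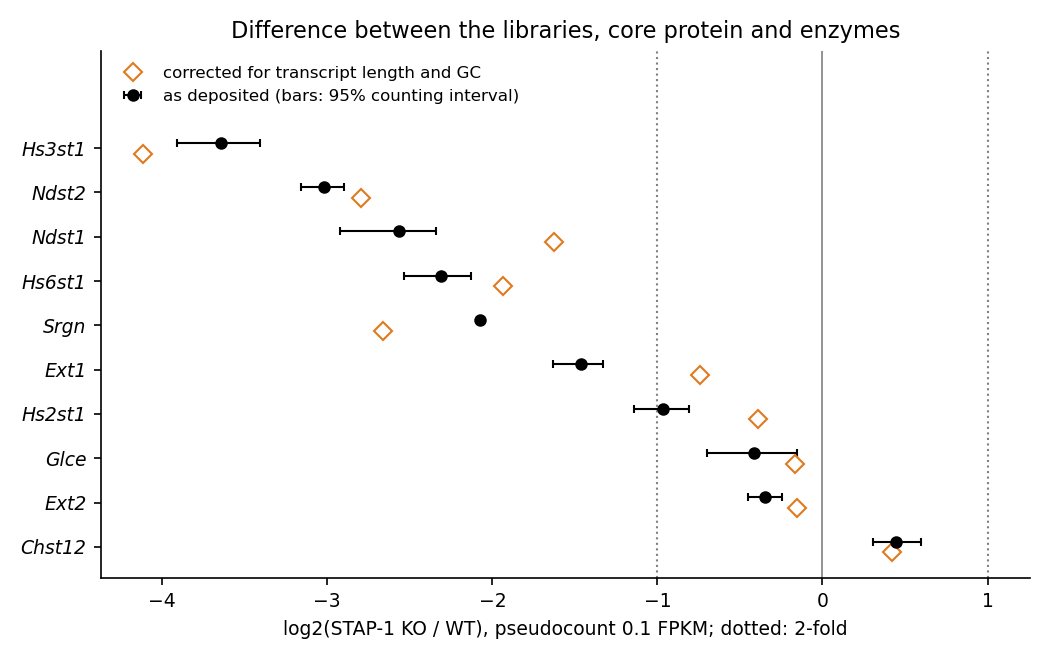
Log2 ratio of STAP-1 KO to WT (horizontal axis, pseudocount 0.1 FPKM) for each gene as deposited (black, with the 95% counting interval) and after correction for transcript length and GC content (open orange), sorted by the deposited ratio. Srgn lies in the middle of the order as deposited, at -2.07, and corrected at -2.66, where 2 enzymes lie below it.

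The make-up of the enzyme transcripts differed between the libraries. Ndst2 and Hs3st1 together held 57.1% of the summed enzyme FPKM in WT and 16.6% in STAP-1 KO. Ext2 and Chst12 together held 21.9% in WT and 63.8% in STAP-1 KO, although their own summed level was nearly the same in both, at 92.6 and 93.6 FPKM. In WT the order of levels was Srgn, Ndst2, Hs3st1, Ext2, Chst12, Hs6st1, Ext1, Hs2st1, Ndst1 and Glce, where Ndst2 and Hs3st1, and also Chst12 and Hs6st1, did not differ beyond their counting intervals. In STAP-1 KO the order was Srgn, Chst12, Ext2, Ndst2, Hs3st1, Hs2st1, Hs6st1, Ext1, Glce and Ndst1, where each neighbour from Hs3st1 to Ext1 overlapped the next. The chondroitin enzyme Chst12 thus had 3 enzymes above it in WT and 0 in STAP-1 KO, while Ndst2 had 0 and 2.

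**Figure D3:**
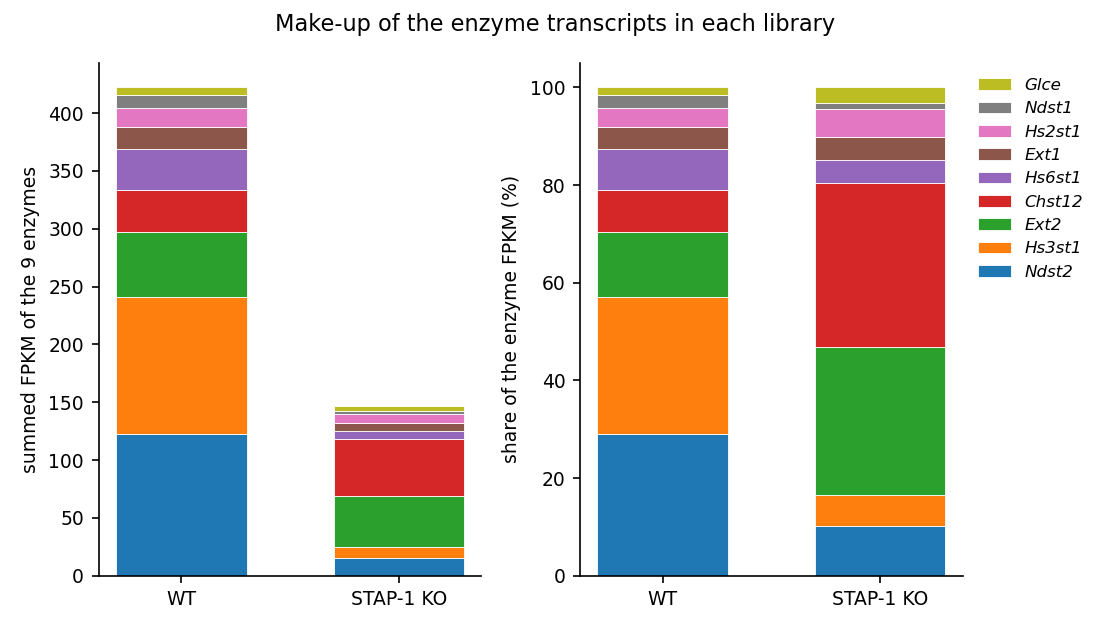
Stacked bars of the 9 enzymes in the WT and STAP-1 KO libraries, as summed FPKM (left) and as the share of that sum in percent (right), with the same colours in both. The summed level is 422 FPKM in WT and 147 FPKM in STAP-1 KO, and Ndst2 with Hs3st1 takes 57.1% of it in WT and 16.6% in STAP-1 KO.

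Over all genes the log2 ratio was lower for longer transcripts, which touches this comparison because Srgn is short and most of the enzymes are long. The part of length in the values was not tested beyond the correction below. Across 10853 genes averaging 1 FPKM or more, longer transcripts had lower log2 ratios, with a Spearman rho of -0.37 between the ratio and the longest annotated transcript, a description across genes of 2 libraries. The median log2 ratio was 0.50 in the shortest of 10 equal groups of genes (up to 1300 bases) and -0.98 in the longest (from 6376 bases). The longest transcript of Srgn has 1727 bases, and that of 7 of the 10 genes exceeds 3000. When each ratio was set against genes of like length and GC content, Srgn came to -2.66 and the median of the enzymes to -0.74, so the core protein lay -1.92 from the enzymes instead of -0.61. Corrected, 5 of the 10 genes remained beyond 2-fold lower, where 18.6% of 12344 genes were lower and 9.79% higher: Srgn at -2.66, Hs3st1 at -4.12, Ndst2 at -2.80, Hs6st1 at -1.93 and Ndst1 at -1.63. Ext1, with 7663 bases, came to -0.74 and no longer passed. Hs2st1 came to -0.39, Glce to -0.17, Ext2 to -0.15 and Chst12 to 0.42.

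**Figure D4:**
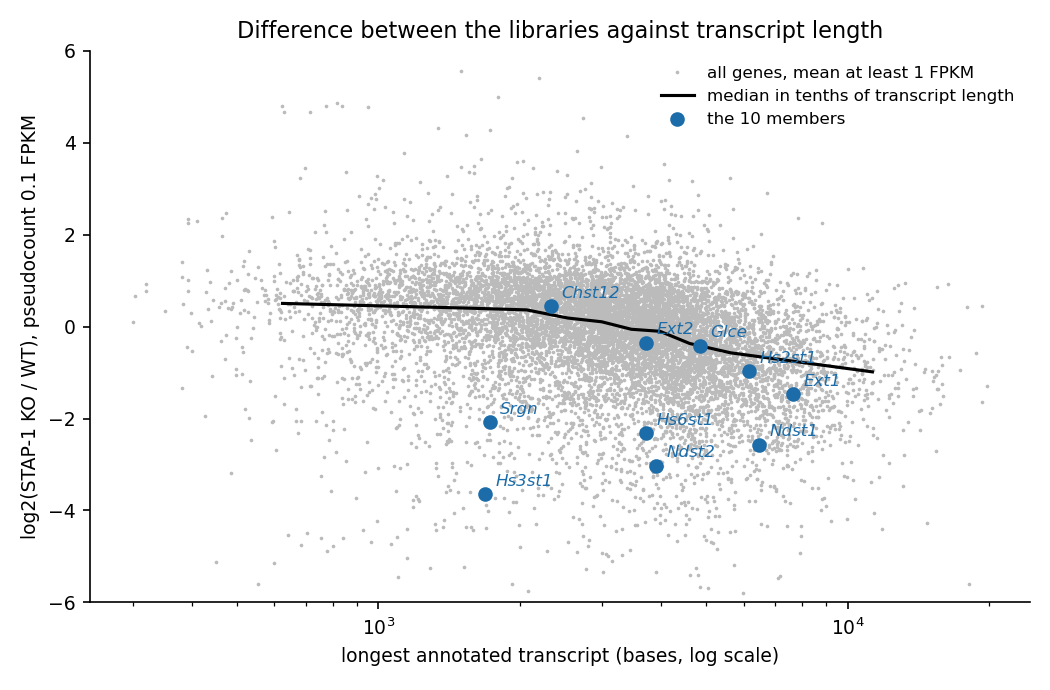
Log2 ratio of STAP-1 KO to WT (vertical axis, pseudocount 0.1 FPKM) against the length of the longest annotated transcript in bases (logarithmic axis) for all genes averaging 1 FPKM or more (grey), the median in each of 10 equal groups by length (black line) and the 10 genes (blue). The line runs from 0.50 down to -0.98, with Ext2, Glce, Hs2st1 and Chst12 near it and Srgn and Hs3st1 far below it among short transcripts.

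Of the marker lists for cells that the sort could hold, that of mast cells was lower and that of neutrophil granules was higher. The T and NK cell, erythroid and sort marker lists had some markers lower and 0 higher. The eosinophil, monocyte, megakaryocyte and stromal lists had markers on both sides. All 12 mast cell and basophil markers were at least 2-fold lower in STAP-1 KO, their summed level was 52333 FPKM in WT and 5299 FPKM in STAP-1 KO, their median log2 ratio was -3.46, and none was at 0. All 6 neutrophil primary granule markers were at least 2-fold higher, with sums of 565 and 4627 FPKM. Of the other lists, counted over the markers that reached 0.1 FPKM in both libraries and summed over all, 1 of 4 eosinophil markers was lower and 2 were higher (sums 31.7 and 84.9 FPKM), 2 of 5 monocyte markers were lower and 3 were higher (95.9 and 123 FPKM), 2 of 7 megakaryocyte markers were lower and 1 was higher (201 and 135 FPKM), and 4 of 6 T and NK cell markers were lower (10130 and 3108 FPKM). Gzmb alone held 9642 and 2302 FPKM of the T and NK cell sums, and the other 6 of the 7 markers listed summed to 488.1 and 805.7 FPKM, higher in STAP-1 KO. Among 4 erythroid markers 1 was lower (286 and 211 FPKM), among 4 endothelial and stromal markers 3 were lower and 1 was higher (60.3 and 29.4 FPKM), and the 4 B cell markers, 2 of which were at 0 in both libraries, summed to 0.505 and 0.222 FPKM. Against the label of the sort, Kit, which encodes c-Kit, was listed at 468 FPKM in WT and 30.1 FPKM in STAP-1 KO, and Ly6a, which encodes Sca-1, at 285 and 106 FPKM. The 4 markers Kit, Ly6a, Ptprc and Cd34 summed to 1142 and 368 FPKM, or 860.2 and 173.8 FPKM without Cd34, whose antigen was not part of the sort. Either sum lay below that of the 12 mast cell markers in both libraries. The lists differ in number and kind of gene, so these sums cannot tell what the cells are. The cells are called LSCs here by their sort alone. In a bulk library, fewer cells of a type and less RNA per cell cannot be told apart, and the part of these markers in the values of Srgn and the enzymes was not tested.

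The wider pathway was described with 6 lists of 80 genes written from textbook knowledge of glycosaminoglycans. Of the 60 with at least 0.1 FPKM in both libraries, 24 (40%) were at least 2-fold lower and 5 (8.3%) were higher, beside 22.9% and 12.3% of all genes, and 8 of the 80 were at 0 in both. Corrected for length and GC content, 21 of the 60 were lower and 4 higher, beside 18.6% and 9.79% of all genes so corrected, with Extl3, Chsy1, Chpf and Slc26a2 no longer lower and Hexa newly so. This correction of the lists was added after their values were seen. The counts for each list below use the uncorrected rule, and the medians use genes averaging 1 FPKM or more. Over the 52 that averaged 1 FPKM or more, the median log2 ratio was -0.65 (-0.56 corrected), against -1.77 (-1.18 corrected) for the 10 genes and -0.04 for all genes at that level.

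**Figure D5:**
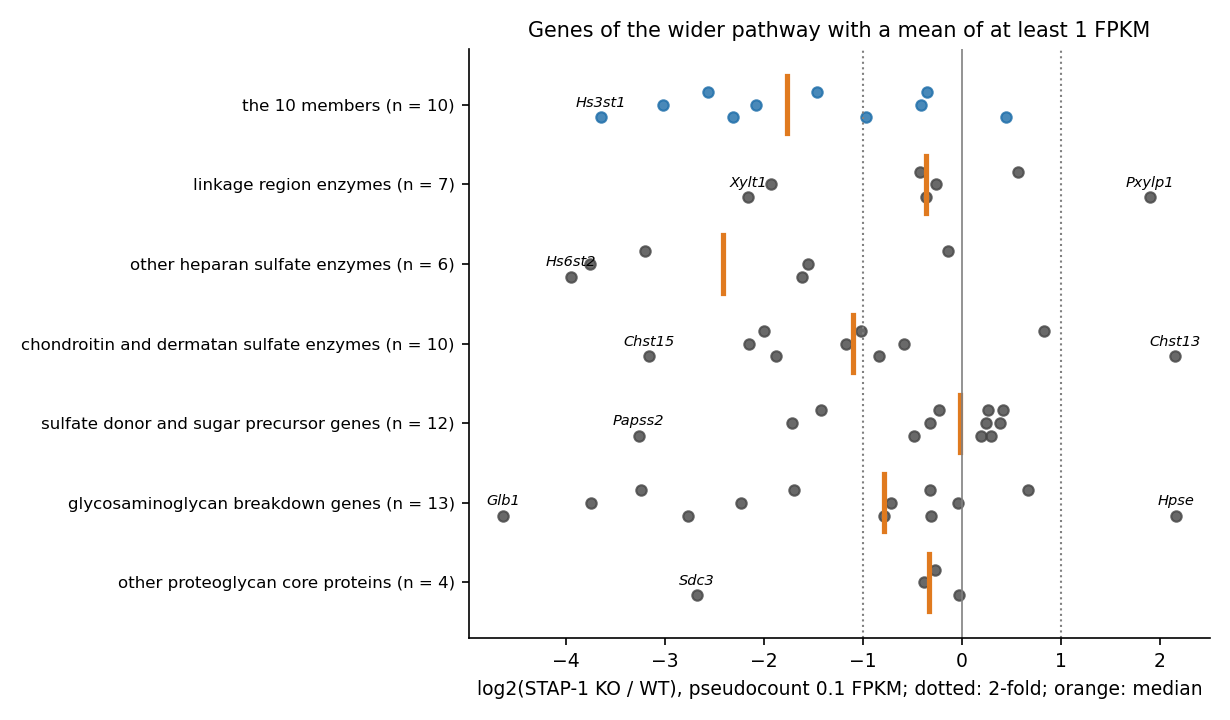
Log2 ratio of STAP-1 KO to WT (horizontal axis, pseudocount 0.1 FPKM) for the 10 genes (blue) and for the genes of the 6 wider lists that average 1 FPKM or more (grey, 1 point a gene), with the median of each list in orange and dotted lines at 2-fold. The medians run from -2.41 for the other heparan sulfate enzymes to -0.02 for the sulfate donor and sugar precursor genes. Over all genes of the former list above 0 in either library, the median was -1.55.

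The linkage between core protein and chain is built by enzymes common to heparan and chondroitin sulfate, and of those 7 genes 2 (28.6%) were lower and 1 was higher, a share lower near that of all genes, with a median of -0.36. Xylt1, which starts the chain on serine, was listed at 4.52 FPKM in WT and 0.935 FPKM in STAP-1 KO. Fam20b, the kinase that phosphorylates the first xylose, was listed at 53.1 and 13.9 FPKM, and Pxylp1 (Acpl2 in the files), the phosphatase that removes that phosphate, at 2.06 and 7.97 FPKM. The kinase and the phosphatase thus lay on opposite sides, 3.82-fold lower (interval 3.48 to 4.18) and 3.87-fold higher (interval 2.82 to 5.43). B3galt6, a galactosyltransferase, was within 2-fold at 6.79 and 10.1 FPKM.

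Most of the measurable relatives of the heparan enzymes were lower as well. Of 15 such genes 6 were at 0 in both libraries and 6 reached 0.1 FPKM in both. Of the latter 4 (66.7%) were lower and 0 higher. Corrected, 3 were lower, without Extl3. The median was -2.41 over the 6 that averaged 1 FPKM or more, a different set that includes Ndst3, below 0.1 FPKM in STAP-1 KO. Ndst3 and Hs3st3b1 reached that average through WT alone. Over all genes of the list above 0 in either library the median was -1.55. Hs6st2, the second 6-O-sulfotransferase, was listed at 44.0 FPKM in WT and 2.76 FPKM in STAP-1 KO, 15.9-fold lower (interval 13.2 to 19.3). It exceeded Hs6st1 in WT, where Hs6st1 held 44.4% of the FPKM of the pair, and lay below it in STAP-1 KO, where Hs6st1 held 71.7%. Ndst3, a further N-sulfotransferase, was listed at 2.00 and 0.0559 FPKM, where the lower value rests on an estimated 3.14 reads and the ratio of 35.8 has an interval of 12.3 to 184. Hs3st3b1, another 3-O-sulfotransferase, was listed at 2.78 and 0.214 FPKM, and Extl3, which helps to start the heparan chain, at 5.55 and 1.74 FPKM.

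Of 15 chondroitin and dermatan sulfate genes, the competing chain type to which Chst12 belongs, 12 reached 0.1 FPKM in both libraries. Of these 7 (58.3%) were lower, or 5 after correction, and 1 was higher, with a median of -1.10, so most of this pathway did not share the higher value of Chst12. Chst15, which adds the second sulfate of chondroitin sulfate E, was listed at 18.8 FPKM in WT and 2.02 FPKM in STAP-1 KO, 9.31-fold lower (interval 7.56 to 11.6), and 17.9% of its exon bases are shared with Gm10584 on the opposite strand. The chondroitin 4-O-sulfotransferases did not lie on 1 side. Chst11 was listed at 5.02 and 1.29 FPKM, on the opposite side from Chst12, and Chst13, which was picked after its values were seen and is the list's higher gene, at 0.370 and 1.99 FPKM, on the same side on an estimated 3.99 and 30.0 reads. Chpf2, a polymerizing factor, was listed at 37.0 and 8.25 FPKM, with 44.1% of its exon bases shared with Smarcd3 on the opposite strand, and Dse, the dermatan sulfate epimerase, at 2.29 and 0.499 FPKM.

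All sulfotransferases draw on the same sulfate donor, PAPS. Of 12 genes for the donor and the sugar precursors, 3 (25.0%) were lower and 0 higher, again near the share of all genes, with a median of -0.02. Corrected, 2 were lower. Papss2, a synthase of PAPS, was listed at 192 FPKM in WT and 19.9 FPKM in STAP-1 KO, 9.65-fold lower (interval 8.91 to 10.4), a ratio between those of Ndst2 and Hs3st1. It held 91.8% of the FPKM of both synthases in WT and 48.5% in STAP-1 KO. Slc35d1, a carrier of nucleotide sugars, was listed at 39.9 and 12.1 FPKM, Slc26a2, a sulfate transporter, at 6.53 and 2.38 FPKM, and Slc35b4, a further nucleotide sugar carrier, within 2-fold at 29.4 and 21.0 FPKM, with 10% of its exon bases shared with Gm13856 on the opposite strand.

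Of 14 genes for glycosaminoglycan breakdown 13 reached 0.1 FPKM in both libraries, and of these 6 (46.2%) were lower, or 7 after correction, and 1 was higher, with a median of -0.79. Glb1, the lysosomal beta-galactosidase, was listed at 1849 FPKM in WT and 74.3 FPKM in STAP-1 KO, and 5.49% of its exon bases are shared with Tmppe. Ids, which removes sulfate from iduronic acid, was listed at 67.9 and 4.97 FPKM, and Naglu, a glucosaminidase, at 48.0 and 10.1 FPKM. Hpse, the heparanase that cuts heparan chains, was the gene that was higher, at 0.650 and 3.26 FPKM, 5.01-fold (interval 2.88 to 9.60), and was named after its values were seen.

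Srgn stood apart in level from the other core proteins. All 17 other proteoglycan core proteins summed to 44.0 FPKM in WT and 33.9 FPKM in STAP-1 KO, against the 6691 and 1588 FPKM of Srgn. Of the 10 with at least 0.1 FPKM in both libraries 2 (20%) were lower and 2 were higher, the former near the share of all genes, and the median over the 4 that averaged 1 FPKM or more was -0.33. Cd44 was listed at 31.9 FPKM in WT and 26.4 FPKM in STAP-1 KO, Sdc3 at 4.76 and 0.662 FPKM, Sdc1 at 1.87 and 1.41 FPKM, and Gpc1 at 2.31 and 2.26 FPKM, with 18.9% of its exon bases shared with Ankmy1 on the opposite strand. Sdc3, a syndecan, was 7.19-fold lower (interval 4.93 to 10.8), and the other 3 of these lay within 2-fold.

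The promoters were searched for short motifs because several of the 10 genes were lower together. RefSeq entries of 250 bases before to 50 after a start (GRCm38) were held for 8 of the 10 genes, all but Ext1 and Ndst1, with 9 promoters in all, since Srgn has 2. Both strands were searched for the GATA factor motif GATAA, for the E-box CANNTG with its narrower form CANGTG, which covers the E-boxes that MITF is known to bind, for the STAT motif TTCNNNGAA, for the ETS factor motif GGAAGT and for the GC box GGGCGG, where each CANGTG match is also a CANNTG match. GATAA occurred in 1 of the 9 promoters, that of Ext2, and in 25.4% of all 32851 promoters. CANGTG occurred in 2 of 9, those of Ext2 and Chst12, and in 44.9% of all. CANNTG occurred in 4 of 9 (72.3% of all), GGAAGT in 3 of 9 (23.8%), GGGCGG in 5 of 9 (35.7%) and TTCNNNGAA in 0 of 9 (8.3%). GGAAGT was in 1 promoter of Srgn and in those of Hs3st1 and Ndst2, and was not found in that of Hs6st1, which was 5.03-fold lower, nor in those of Ext2, Hs2st1, Glce and Chst12. Ext1 and Ndst1, both counted as lower, are missing from this comparison. These are matches of letters and not binding sites. The bases before the start that no exon covers are shown for Srgn and the 2 enzymes with the highest level in WT, Ndst2 and Hs3st1, and for Chst12, the enzyme with the highest level in STAP-1 KO, with every match in capitals. They lie at chr10:62527452-62527695 (minus strand) for Srgn, chr5:39644635-39644881 (minus strand) for Hs3st1, chr14:20734563-20734812 (minus strand) for Ndst2 and chr5:140505359-140505549 (plus strand) for Chst12.
Srgn promoter: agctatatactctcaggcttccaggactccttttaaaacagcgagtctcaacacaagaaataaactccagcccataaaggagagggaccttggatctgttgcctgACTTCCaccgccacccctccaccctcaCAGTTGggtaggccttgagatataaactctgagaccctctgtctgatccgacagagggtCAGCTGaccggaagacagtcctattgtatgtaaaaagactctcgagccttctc
Hs3st1 promoter: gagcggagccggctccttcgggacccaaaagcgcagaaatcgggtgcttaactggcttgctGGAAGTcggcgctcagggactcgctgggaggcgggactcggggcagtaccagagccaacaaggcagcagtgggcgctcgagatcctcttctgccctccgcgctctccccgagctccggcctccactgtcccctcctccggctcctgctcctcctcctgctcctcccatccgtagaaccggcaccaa
Ndst2 promoter: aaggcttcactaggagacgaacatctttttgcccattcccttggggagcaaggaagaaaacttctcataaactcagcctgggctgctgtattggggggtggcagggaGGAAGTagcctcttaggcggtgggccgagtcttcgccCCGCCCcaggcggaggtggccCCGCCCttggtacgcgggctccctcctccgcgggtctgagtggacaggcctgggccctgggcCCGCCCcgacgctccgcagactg
Chst12 promoter: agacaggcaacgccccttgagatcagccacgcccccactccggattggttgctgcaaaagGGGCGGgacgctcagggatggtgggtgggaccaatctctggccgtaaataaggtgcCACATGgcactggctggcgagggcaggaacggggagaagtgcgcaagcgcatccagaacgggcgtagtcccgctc

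The matches lie at different places in these windows. In the Srgn window GGAAGT is read on the opposite strand and 2 CANNTG matches follow it nearer the start. The Hs3st1 window holds GGAAGT alone. The Ndst2 window holds GGAAGT and 3 matches of GGGCGG on the opposite strand, and that of Chst12 holds GGGCGG and CANGTG.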

How the data were processed

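RNA-seq was analysed in 1 WT and 1 STAP-1 KO library of sorted CML LSCs. The authors prepared cDNA with a low-input SMART-Seq v4 kit and Nextera XT libraries, which do not keep the strand, and read 75 bases from 1 end. RNA extraction is given as miRNeasy in the labels and as RNeasy in the methods. The deposited values are FPKM per gene symbol, made by the authors with TopHat2 2.0.13, Bowtie2 2.2.3 and Cuffnorm of Cufflinks 2.2.1 on mm10, and SAMtools 0.1.19 stands in the submitters' processing notes. The gene annotation and the scaling option of Cuffnorm are not given in the sources used here.

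Ratios were computed with scipy 1.17.1, pandas 2.3.3 and numpy 2.4.6 under Python 3.11.15, and plots drawn with matplotlib 3.10.9. A gene was counted as lower or higher from a 2-fold ratio upward, without a pseudocount, where it reached 0.1 FPKM in each library. Log2 ratios used a pseudocount of 0.1 FPKM, and list medians used genes averaging 1 FPKM or more. With 1 library per genotype no test was possible and no p-value was computed. Of the 23284 symbols, 20911 matched GENCODE M21 (GRCm38) as written, 1865 through a synonym, and 508 did not. In genes that have 1 annotated transcript, many low FPKM fall on steps of whole reads, which gave effective depths of 7510000 reads in WT and 10480000 in STAP-1 KO. Whole reads, within a tolerance of 0.02 reads, then came out for 56.1% of 296 low values in WT and for 54.8% of 361 in STAP-1 KO, and 3 reads on a transcript of 2000 bases correspond to 0.224 and 0.16 FPKM. Estimated reads assume the longest annotated transcript. They gave exact 95% intervals, Clopper-Pearson for ratios and Poisson for levels, that cover counting error only. The correction centred each log2 ratio on genes of like transcript length and then GC content in 20 bins each. The calls, the correction and the depth estimate were tested on simulated data. Those data were drawn with Poisson counting under the same assumed transcript lengths, so departures from these assumptions were not tested.

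The 10 genes and all lists were chosen with earlier results of these data known. By rule, the text names all 10 genes, Stap1, Kit, Ly6a and, of each wider list, up to 4 genes that averaged 1 FPKM or more and lay farthest from a log2 ratio of 0 with 1 FPKM as pseudocount. Ptprc, Cd34, Gzmb, Chst13, Hpse, Chsy1, Chpf and Hexa lie outside this rule and were named after their values were seen. Of the genes that the rule selects, 1 is not reported here. Alternatives varied the floor, the fold cut-off, the pseudocount, the scaling, the correction and the genes averaged. Protein sequences were not used here.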

Additional observations from a re-analysis of the deposited data

How the results depend on the processing

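The number of the 10 genes counted as lower ranged from 5 (4-fold cut-off, or corrected for length and GC content) to 7 (1.5-fold cut-off) around the reported 6, and the number counted as higher was 0 under all 8 alternatives. Of 60 values of single genes under other settings, 48 stayed inside their counting interval, 12 moved beyond it and 0 changed sign, and 8 of the 12 came from the correction. The difference between Srgn and the enzyme median was -1.92 corrected and -0.19 without Chst12, and without Chst12 the ratio of Srgn to the summed enzymes was 17.3 in WT and 16.3 in STAP-1 KO. The median of the other heparan sulfate enzymes was -1.38 with a pseudocount of 1 FPKM, -1.87 corrected and -1.55 over all genes above 0, by construction for the first and the last, which weigh low genes differently. The median of the sulfate donor and sugar precursor genes, close to 0, turned to 0.017 with upper-quartile scaling, 0.081 with total scaling, 0.055 corrected and 0.189 over genes averaging 5 FPKM or more. The median of the breakdown genes was -0.69 with total scaling and -1.06 corrected. Scaling to equal total FPKM shifted every log2 ratio by 0.10 and the median of all genes to 0.06. Over all genes, 2860 were lower and 1538 higher, against 2291 and 1209 corrected, 1071 and 300 at 4-fold, 4101 and 3201 at 1.5-fold, and 1953 and 1070 with a floor of 1 FPKM. The cause of the other moves was not tested.

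With 1 library per genotype leaving out a library was not possible. No paired analysis was possible because each group has 1 library. Counting intervals rest on estimated reads and on the longest transcript, and the spread between animals is unknown.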
